A study of Mus musculus with 24 samples.

Results

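The 10 genes of replication licensing described here are Mcm2, Mcm3, Mcm4, Mcm5, Mcm6, Mcm7, Dbf4, Cdc7, Cdc6 and Cdt1. They were followed in cultured embryonic cortical neurons of Il1rap-/- mice that carried different accessory chains of the interleukin-1 receptor. The members were all probe sets whose platform annotation gives exactly one of these symbols: 27 of the 45037 probe sets of the array, from 10 of its 18193 named genes. In neurons with both accessory chains, AcP and AcPb, 13 of the 22 member probe sets bright enough to test were lower without IL-1b than the mean of the other 3 receptor arms, where 3.04% of all probe sets were. With IL-1b 7 were lower, 6 of them the same probe sets, beside 1.15% of all, a count that was 1 without AcP+AcPb IL-1b array 3. Against neurons with AcP alone, 1 member probe set was lower without IL-1b, beside 0.108% of all, a count of 0 to 2 without 1 array. With IL-1b no member differed from AcP neurons in the test, beside 0.0328% of all, and the AcP+AcPb arrays lay beside theirs. The AcP+AcPb arrays carry other codes in their file names than the other arms, so arm and array code cannot be told apart in these comparisons. A single probe set, of Mcm5, rose with IL-1b in AcP+AcPb neurons, where its 3 control arrays were the lowest of all 24, and the call was lost when any of 5 of the 6 arrays was left out.

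Licensing prepares each origin of replication to be used a single time in a cell cycle. In late mitosis and G1 the origin recognition complex, Cdc6 and Cdt1 load the Mcm2 to Mcm7 ring, the core of the replicative helicase, onto DNA in an inactive form. At the start of S phase the Cdc7 kinase, switched on by its regulatory subunit Dbf4, phosphorylates Mcm subunits and the origin fires. Many of these genes are transcribed under E2F factors in cycling cells, and their RNA is low in mature neurons, which have left the cell cycle, and high in dividing neural progenitors.

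RNA came from embryonic cortical neurons of Il1rap-/- mice, which lack the gene of both accessory chains, grown in serum-free neuronal medium. AcP pairs with the receptor of the inflammatory cytokine IL-1b to start signalling, and AcPb is a splice form known from neurons. The neurons of the 4 arms expressed AcP and AcPb together, AcP alone, AcPb alone, or CD25, a chain of the interleukin-2 receptor that serves as the arm without an accessory chain. Each arm had 3 arrays after IL-1b at 10 ng/ml and 3 after a control stimulus, all taken at 4 h, so that 24 arrays form 8 groups. The sources used here do not give how the receptors were delivered, nor whether the 3 arrays of a group stand for different cultures or mice. The p-values therefore measure the spread between these arrays alone, and it may be technical.

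Intensities are given in the deposited linear units, in which array medians lay between 55.02 and 66.41 and from 16.4% to 18.2% of the values of an array were below 0. All 13 neuron markers were tested, and their summed intensity lay between 46527 and 55260 on every array. All 9 astrocyte markers were tested as well, with sums between 15806 and 23777. Of 9 microglia markers 4 were tested, with Csf1r group means between 277 and 636 and Cd68 between 39.4 and 56.0, while Tmem119 and Aif1 had means below 0 in every group. Of 12 endothelial, mural and fibroblast markers 9 were tested, among the endothelial ones Kdr, with means between 62.04 and 83.9, while Pecam1 was below 0 in every group. Il1rap group means lay between 110.8 and 135.8 on its brightest probe set and Il2ra, the gene of CD25, between 19.2 and 37.7. The sources used here do not give whether these probe sets cover the deleted or the added sequence, so they check no label. The names of the submitters' array files hold a code. It was 23 on the 3 AcP+AcPb IL-1b arrays and on AcP+AcPb control 3, 22 on AcP+AcPb controls 1 and 2, and 21 on the 18 arrays of the other arms. Receptor arm and array code therefore cannot be told apart wherever AcP+AcPb is set against another arm.

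Promoters of Mcm5, Mcm6, Mcm7 and Dbf4, which differed between arms, are shown because E2F factors are the best known regulators of this group. Mcm2, Mcm3, Mcm4 and Cdt1 also differed between arms, and their promoters are not shown. RefSeq promoter windows of assembly GRCm38.p6 ran from 250 bases before to 50 bases after a transcription start. They were matched by symbol for 9 of the 10 genes, as 11 windows, with none for Mcm4. Each was searched on both strands for 4 forms of an E2F core motif of 8 bases, TTTCCCGC, TTTGGCGC, TTTCGCGC and TTTGCCGC. At least one form was present in 6 of the 11 windows, belonging to Mcm3, Mcm5, Mcm6, Mcm7, Cdc6 and Cdt1, against 744 of all 32851 windows, or 2.26%. The windows of Mcm2, Dbf4 and Cdc7 held none of these forms, nor did the Mcm7 window at chr5:138171217-138171516. Capitals mark the matches, on either strand, in the Mcm5 window (chr8:75109259-75109558, plus strand), the Mcm6 window (chr1:128359656-128359955, minus strand) and one of the windows of Mcm7 (chr5:138171834-138172133, minus strand), while the Dbf4 window (chr5:8422667-8422966, minus strand) has none.
Mcm5: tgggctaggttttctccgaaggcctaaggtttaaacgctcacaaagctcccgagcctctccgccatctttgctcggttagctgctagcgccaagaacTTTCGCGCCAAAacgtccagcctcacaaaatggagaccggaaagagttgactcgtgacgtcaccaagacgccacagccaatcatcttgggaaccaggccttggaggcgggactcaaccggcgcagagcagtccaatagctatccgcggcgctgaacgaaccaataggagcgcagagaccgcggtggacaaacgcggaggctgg
Mcm6: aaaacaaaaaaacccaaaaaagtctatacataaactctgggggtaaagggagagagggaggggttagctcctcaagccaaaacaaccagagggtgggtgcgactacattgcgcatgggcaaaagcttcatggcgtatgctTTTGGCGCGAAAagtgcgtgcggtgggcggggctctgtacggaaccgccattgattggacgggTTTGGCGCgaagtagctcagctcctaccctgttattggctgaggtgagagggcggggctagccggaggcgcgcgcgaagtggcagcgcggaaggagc
Mcm7: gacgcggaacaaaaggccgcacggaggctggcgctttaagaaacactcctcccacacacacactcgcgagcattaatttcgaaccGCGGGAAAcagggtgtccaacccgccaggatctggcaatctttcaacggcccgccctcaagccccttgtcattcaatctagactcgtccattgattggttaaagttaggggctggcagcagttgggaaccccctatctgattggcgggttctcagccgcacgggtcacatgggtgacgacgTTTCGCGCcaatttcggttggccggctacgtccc
Dbf4: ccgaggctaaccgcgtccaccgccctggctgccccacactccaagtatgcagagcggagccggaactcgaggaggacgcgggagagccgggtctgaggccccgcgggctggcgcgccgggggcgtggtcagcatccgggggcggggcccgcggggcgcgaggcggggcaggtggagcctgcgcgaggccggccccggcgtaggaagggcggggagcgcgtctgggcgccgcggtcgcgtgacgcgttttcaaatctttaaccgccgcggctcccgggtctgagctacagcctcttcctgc
In the Mcm5 window 2 matches overlap, TTTCGCGC at -153 to -146 and TTTGGCGC on the opposite strand at -149 to -142, counted from the start, whose own base is 1, with no position 0. The Mcm6 window holds a similar overlapping pair at -110 to -99 and a further TTTGGCGC at -47 to -40. A match is a description of these letters and not a measured binding site.

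The members kept one order of arms. The mean over the 6 arrays of an arm was lowest in AcP+AcPb, then AcP, then AcPb, and highest in CD25, for 9 of the 9 genes with a tested brightest probe set and for 16 of the 22 tested probe sets. The other 6 were 1420029_at and 1426653_at of Mcm3, 1415945_at and 1459658_at of Mcm5, 1416031_s_at of Mcm7 and 1426021_a_at of Cdc7. The lowest of the 8 group means was that of AcP+AcPb control in 16 of the 22, and the highest was a CD25 group in 18. CD25 neurons had 2.49 times the AcP+AcPb arm mean for Mcm6, 2.37 times for Mcm5, 1.97 for Mcm3, 1.84 for Dbf4, 1.81 for Mcm4, 1.67 for Cdt1, 1.55 for Mcm7 and 1.48 for Mcm2, but only 1.15 for Cdc7. In bulk RNA of a culture, fewer cells that express a gene and less of its RNA per cell cannot be told apart.

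**Figure D1:**
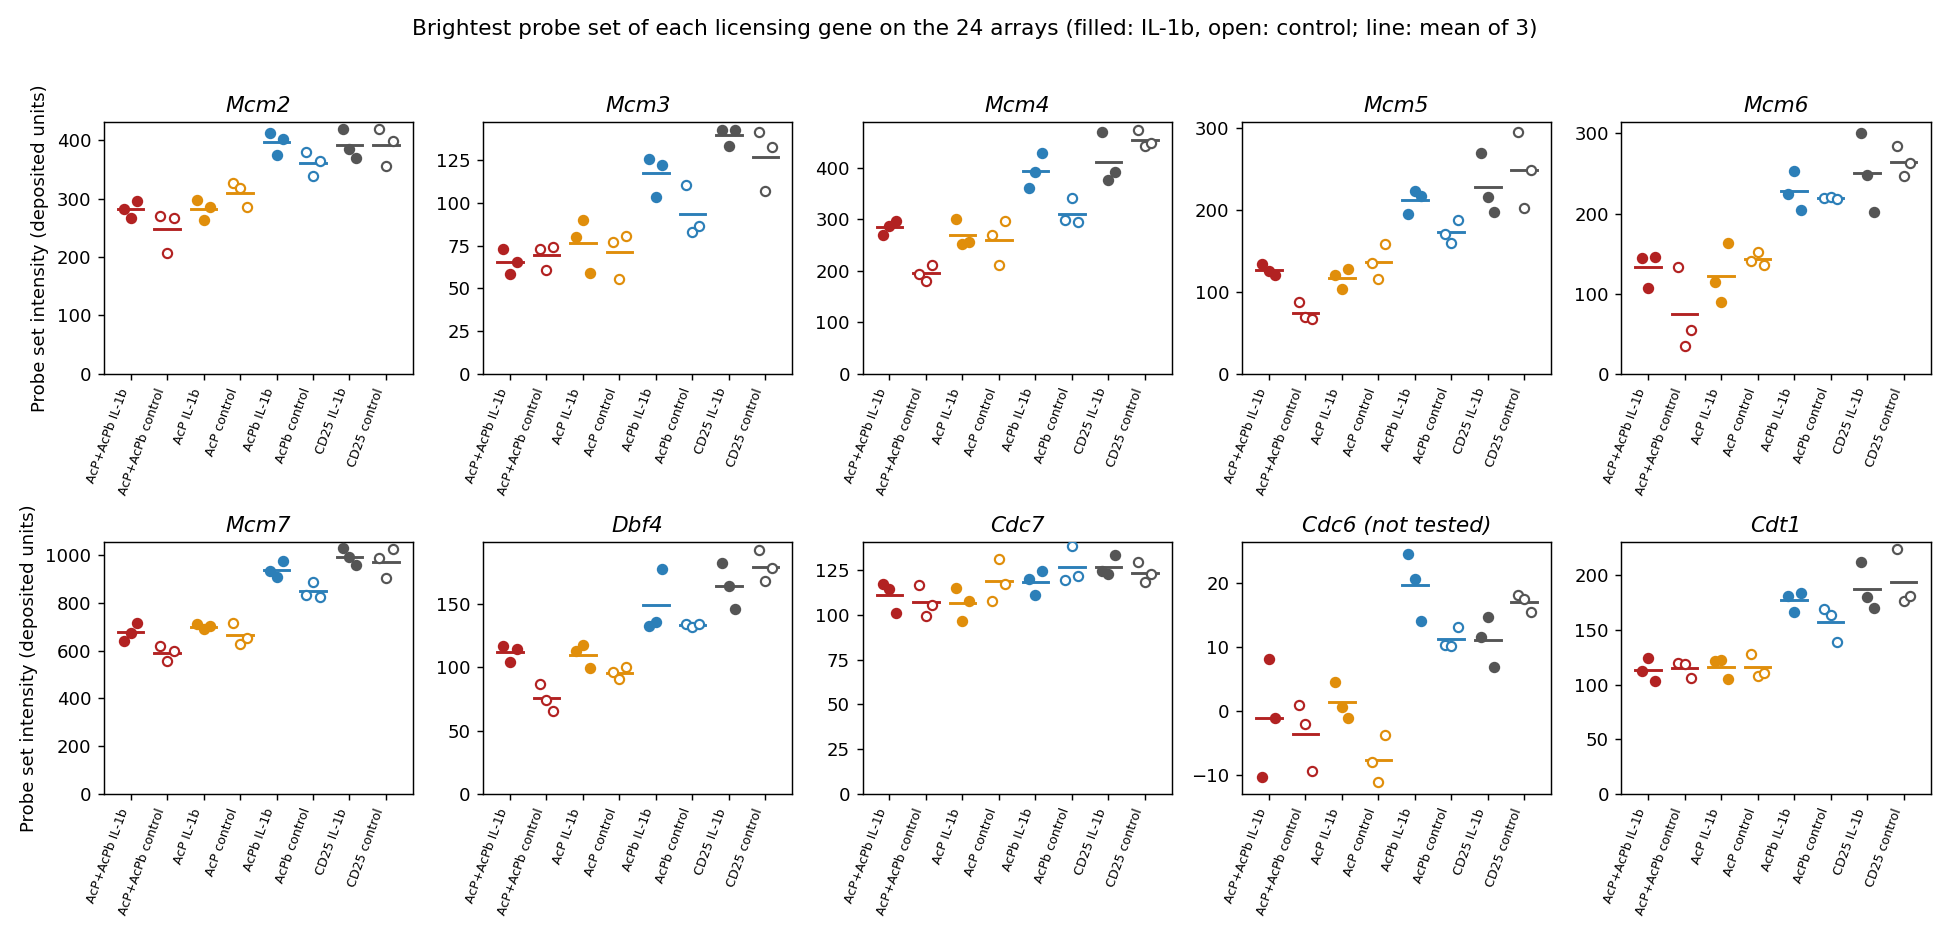
Intensity in deposited units (vertical axes, linear) of the brightest probe set of each of the 10 genes on the 24 arrays, by group, with filled points for IL-1b, open points for control and a line at the mean of 3. For Mcm5 and Dbf4 the 3 AcP+AcPb control points lie below all other points, while Cdc6 lies around 0. The Cdc7 points of AcP and AcPb overlap those of the other arms, and those of AcP+AcPb lie just below those of CD25.

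The summed intensity of the 6 Mcm genes, each on its brightest probe set, shows the pattern of the ring as a whole. The sums were 1547, 1516 and 1641 on the AcP+AcPb IL-1b arrays and 1379, 1109.9 and 1273 on the AcP+AcPb control arrays. In AcP neurons they were 1623, 1487 and 1594 with IL-1b and 1666, 1481 and 1609.6 in control. AcPb neurons gave 2254, 2255 and 2350.04 with IL-1b and 2012, 2029 and 1976 in control, and CD25 neurons 2630.1, 2351 and 2262 with IL-1b and 2601, 2259 and 2515 in control. The 3 AcP+AcPb control sums were the lowest of all 24, and the AcP+AcPb IL-1b sums overlapped those of both AcP groups.

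**Figure D2:**
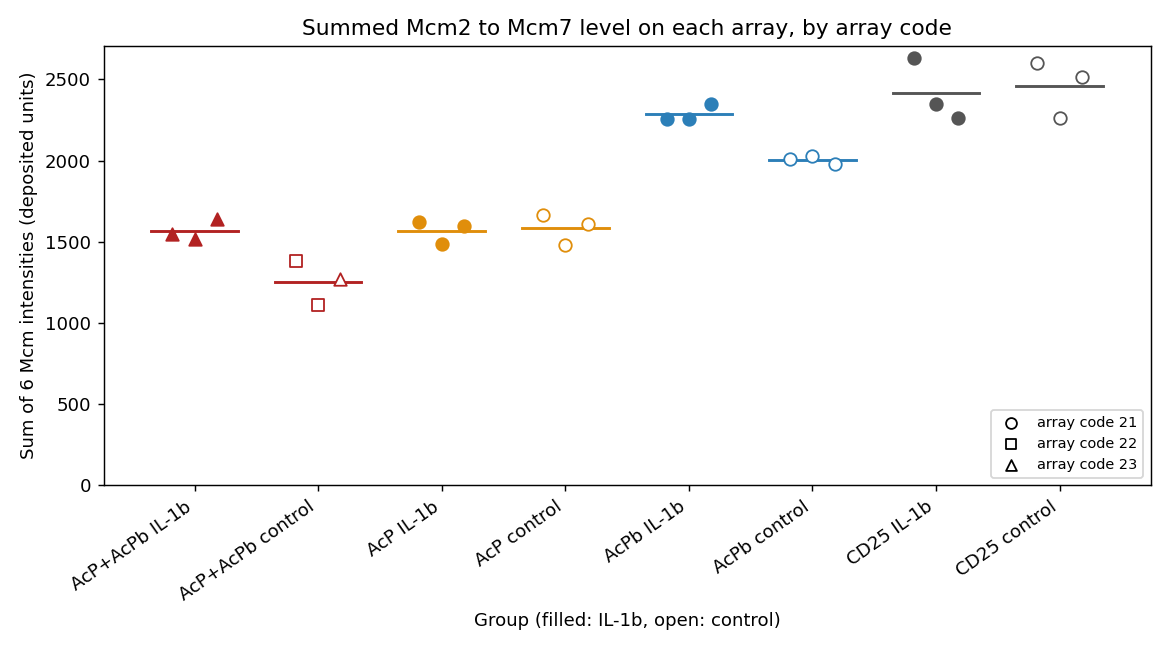
Sum of the 6 Mcm intensities (vertical axis, deposited units, from 0) on each array, by group, with the marker shape giving the array code and a line at the mean of 3. The AcP+AcPb control arrays, of codes 22 and 23, lie between 1109.9 and 1379, and the lowest of the 12 AcPb and CD25 arrays is at 1976.

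Among the loading factors, Cdt1, which brings the Mcm ring to the origin, was lower in the AcP+AcPb and AcP arms than in the AcPb and CD25 arms. On its brightest probe set, 1424143_a_at, Cdt1 lay at 112, 124 and 104 on the AcP+AcPb IL-1b arrays and 120.0, 119 and 106 on the AcP+AcPb control arrays, and at 121, 122 and 106 in AcP neurons with IL-1b and 128, 108 and 111 in AcP control. AcPb neurons had 181, 167 and 184 with IL-1b and 169, 163 and 139 in control, and CD25 neurons 212, 179.9 and 170.5 with IL-1b and 224, 177 and 181 in control. All 6 AcP+AcPb arrays and all 6 AcP arrays were below every AcPb and CD25 array. The second tested Cdt1 probe set, 1424144_at, had 85.8, 83.7 and 76.96 with IL-1b and 66.4, 49.6 and 71.7 in control in AcP+AcPb neurons, 88.9, 52.5 and 80.4 with IL-1b and 64.3, 65.1 and 101 in control in AcP, 92.4, 127 and 99.8 with IL-1b and 91.3, 92.1 and 86.7 in control in AcPb, and 106, 108 and 95.8 with IL-1b and 118, 119 and 94.7 in control in CD25. The other one, 1455791_at, was too dim to test.

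Cdc6, the ATPase that acts with Cdt1 in loading, has a single probe set, 1417019_a_at, which was too dim to test. It was at -10.3, 8.13 and -1.13 on the AcP+AcPb IL-1b arrays, 0.9, -2.05 and -9.41 in AcP+AcPb control, 4.55, 0.63 and -1.02 in AcP with IL-1b and -7.96, -11.2 and -3.68 in AcP control. The AcPb arrays had 24.6, 20.7 and 14.2 with IL-1b and 10.3, 10.2 and 13.2 in control, against 11.7, 14.7 and 6.99 with IL-1b and 18.1, 17.6 and 15.5 in control in CD25 neurons. Of the 12 AcP+AcPb and AcP values 8 were below 0, while all 12 AcPb and CD25 values were above 0, and none reached 25.

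Of the ring subunits, Mcm5 had AcP+AcPb control arrays below all others on 2 of its probe sets. Probe sets of one gene share its RNA and are not replicates, and those ending in x_at or s_at can also bind related sequences. On 1436808_x_at the AcP+AcPb arrays had 134, 125 and 121 with IL-1b and 87.4, 69.2 and 66.5 in control, and the AcP arrays 121, 103 and 128 with IL-1b and 135, 116 and 158 in control. AcPb neurons had 195, 223 and 217 with IL-1b and 170.4, 159.6 and 188 in control, and CD25 neurons 269.7, 216 and 198 with IL-1b and 295, 203 and 249 in control. The 3 AcP+AcPb control values were below the other 21, and the AcP+AcPb IL-1b values lay within the range of the AcP arrays. On 1415945_at the AcP+AcPb values were 91.1, 77.6 and 119.7 with IL-1b and 58.9, 59.9 and 54.9 in control, beside 130.4, 87.6 and 90.8 with IL-1b and 90.6, 74.2 and 84.01 in control for AcP. AcPb had 196, 125 and 176 with IL-1b and 155, 162 and 110.2 in control on it, and CD25 227, 138 and 139 with IL-1b and 155, 131 and 130.2 in control. Here too the 3 AcP+AcPb control values were the lowest of 24. A further one, 1459658_at, had values between 0.75 and 43.4, was tested and was called in no comparison.

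Mcm6 had the largest ratio between arms of the brightest probe sets, and its AcP+AcPb control arrays lay far from each other. Its brightest probe set, 1416251_at, gave 145, 107 and 146 in AcP+AcPb neurons with IL-1b and 134, 34.5 and 54.8 in AcP+AcPb control, and 115, 89.2 and 164 in AcP with IL-1b and 140.3, 153 and 136 in AcP control. It gave 225, 253 and 205 in AcPb with IL-1b and 219, 221 and 219 in AcPb control, and 301, 249 and 202 in CD25 with IL-1b and 284, 247 and 263 in CD25 control. AcP+AcPb control 1 lay among the AcP arrays, while controls 2 and 3 were the lowest of all 24. The second tested probe set, 1438852_x_at, had 69.6, 80.01 and 73.5 with IL-1b and 67.3, 35.8 and 51.7 in control in AcP+AcPb neurons, and 71.7, 66.00 and 66.4 with IL-1b and 81.1, 62.01 and 82.4 in control in AcP neurons. Its AcPb values were 158, 134 and 149 with IL-1b and 90.9, 90.99 and 117 in control, and its CD25 values 168, 121 and 118 with IL-1b and 172, 134 and 148 in control. All AcP+AcPb and AcP values on it were below all AcPb and CD25 values. A further probe set, 1447756_x_at, was too dim to test.

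Mcm4 and Mcm7, which sit with Mcm6 in the helicase core, had the same order of arms on all tested probe sets but 1416031_s_at of Mcm7. Mcm4 on 1436708_x_at had 270.1, 287 and 297 with IL-1b and 194, 180.2 and 212 in control in AcP+AcPb neurons, and 301, 252 and 255 with IL-1b and 269.9, 211 and 297 in control in AcP neurons. It had 361, 392 and 429.6 with IL-1b and 298, 341 and 294 in control in AcPb neurons, and 469, 377 and 391 with IL-1b and 474, 442 and 448 in control in CD25 neurons. The AcP+AcPb IL-1b and control arrays did not overlap, and AcP control 2 lay just under the highest AcP+AcPb control. On 1416214_at Mcm4 had 199, 232 and 185 with IL-1b and 197, 151 and 177 in control in AcP+AcPb, 210.3, 199 and 226 with IL-1b and 259, 162 and 221 in control in AcP, 303, 274 and 310.1 with IL-1b and 288, 244 and 257 in control in AcPb, and 342, 321 and 332 with IL-1b and 376, 325 and 362 in control in CD25. On it the AcP+AcPb IL-1b and control arrays overlapped.

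Mcm7 had 642, 672 and 715 with IL-1b and 619.9, 558 and 598 in control in AcP+AcPb neurons on 1438320_s_at, and 709.7, 689 and 703 with IL-1b and 717, 627 and 652 in control in AcP neurons. AcPb neurons had 936, 909 and 974 with IL-1b and 835, 886 and 823 in control, and CD25 neurons 1029.8, 991 and 960.0 with IL-1b and 987, 905 and 1024 in control. The 12 AcPb and CD25 values were all above the 12 AcP+AcPb and AcP values. The x_at probe set 1439269_x_at showed the same gap, with 179.6, 189 and 189.8 with IL-1b and 169, 128 and 132 in control in AcP+AcPb, 196, 174 and 191 with IL-1b and 187, 159 and 190.4 in control in AcP, 265, 249 and 266 with IL-1b and 212, 246 and 218 in control in AcPb, and 311, 255 and 257 with IL-1b and 308, 246 and 270.0 in control in CD25. For 1416030_a_at they were 194, 205 and 191 with IL-1b and 174, 139.8 and 157 in control in AcP+AcPb, 199.7, 176 and 191 with IL-1b and 152, 181 and 178 in control in AcP, 214, 195 and 217 with IL-1b and 226, 239 and 231 in control in AcPb, and 249, 254 and 231 with IL-1b and 276, 245 and 256 in control in CD25. Here AcPb neurons did not stand clear of AcP+AcPb with IL-1b. The remaining one, 1416031_s_at, had 144, 160.4 and 167 with IL-1b and 136, 135 and 176 in control in AcP+AcPb, 152, 156 and 144 with IL-1b and 136, 170.1 and 141 in control in AcP, 281, 205 and 195 with IL-1b and 177, 227 and 214 in control in AcPb, and 279, 299 and 267 with IL-1b and 284, 191 and 277 in control in CD25, with AcP+AcPb control 3 the highest of the 12 AcP+AcPb and AcP arrays. Its arm mean was 153 in AcP+AcPb and 149.9 in AcP neurons.

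Mcm2, the subunit best known as a substrate of the Cdc7 kinase, had a smaller ratio between arms on its brightest probe set. On 1434079_s_at it had 283, 267 and 296 with IL-1b and 270.5, 207 and 267 in control in AcP+AcPb neurons, and 297, 264 and 285 with IL-1b and 326, 318 and 285 in control in AcP neurons. In AcPb neurons it had 411, 374 and 403 with IL-1b and 379, 338 and 365 in control, and in CD25 neurons 419, 385 and 369 with IL-1b and 419.7, 356 and 398 in control. AcP+AcPb control 2 was the lowest of the 24 arrays. On this probe set and on 1448777_at, every AcPb and CD25 array was above every AcP+AcPb and AcP array. The arm mean on 1448777_at was 124.9 in AcP+AcPb and 211.6 in CD25 neurons. The second Mcm2 probe set, 1448777_at, had 139, 141 and 128 with IL-1b and 110.3, 110.5 and 120.4 in control in AcP+AcPb, 146, 133 and 119 with IL-1b and 128, 131 and 123 in control in AcP, 207, 177 and 204 with IL-1b and 178, 186 and 192 in control in AcPb, and 228, 229 and 174 with IL-1b and 223, 209 and 207 in control in CD25.

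Mcm3, a ring subunit beside Mcm5, had no gap between AcP+AcPb and AcP control. On 1420028_s_at it had 72.9, 58.7 and 65.3 with IL-1b and 73.2, 61.01 and 74.1 in control in AcP+AcPb neurons, and 79.9, 90.3 and 59.04 with IL-1b and 77.4, 55.7 and 80.9 in control in AcP neurons. Its AcPb values were 126, 104 and 122 with IL-1b and 110.5, 82.7 and 86.8 in control, and its CD25 values 142, 133 and 143 with IL-1b and 141, 107 and 133 in control. Mean intensity in control was 69.4 ± 7.30 in AcP+AcPb and 71.4 ± 13.7 in AcP neurons (SD, n = 3 each). On 1426653_at the values were 30.2, 40.7 and 32.9 with IL-1b and 37.3, 33.1 and 24.2 in control in AcP+AcPb, 41.5, 16.9 and 24.01 with IL-1b and 44.1, 31.5 and 15.8 in control in AcP, 48.5, 41.03 and 56.97 with IL-1b and 54.8, 35.3 and 57.9 in control in AcPb, and 72.6, 63.2 and 48.3 with IL-1b and 66.2, 53.04 and 63.3 in control in CD25. On 1420029_at they were 75.7, 60.9 and 62.9 with IL-1b and 55.01, 52.02 and 69.7 in control in AcP+AcPb, 63.96, 57.96 and 59.1 with IL-1b and 64.5, 70.6 and 49.7 in control in AcP, 91.9, 93.8 and 87.4 with IL-1b and 67.4, 72.9 and 55.5 in control in AcPb, and 74.1, 77.9 and 63.2 with IL-1b and 57.4, 72.5 and 63.8 in control in CD25, so that this probe set was highest with IL-1b in AcPb neurons and not in CD25. The probe set 1449705_x_at ranged from -36.4 to 60.1 and was called in no comparison, and 1426652_at was too dim to test.

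Dbf4, the activator of the firing kinase, was also lowest in AcP+AcPb control. On 1418334_at it had 117, 104 and 114 with IL-1b and 86.8, 74.4 and 65.4 in control in AcP+AcPb neurons, and 113, 118 and 99.6 with IL-1b and 96.01, 90.6 and 100.3 in control in AcP neurons. In AcPb neurons it was at 133, 136 and 178 with IL-1b and 135, 132 and 134 in control, and in CD25 neurons at 183, 165 and 146 with IL-1b and 193, 168 and 178 in control. The 3 AcP+AcPb control values were again the lowest of the 24. The other Dbf4 probe set, 1430545_at, was too dim to test.

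Cdc7, the catalytic partner of Dbf4, had the smallest ratio between arms. On 1426002_a_at it had 117, 115 and 101 with IL-1b and 117, 99.5 and 106 in control in AcP+AcPb neurons, and 115, 96.5 and 108 with IL-1b and 108, 132 and 117 in control in AcP neurons. It had 120.2, 111 and 124 with IL-1b and 119.7, 138 and 122 in control in AcPb neurons, and 125, 123 and 133 with IL-1b and 129, 118 and 123 in control in CD25 neurons. Every AcP+AcPb array was below every CD25 array, narrowly, with a highest value of 117.5 against a lowest of 118.2. The AcP and AcPb arrays overlapped each other and both of these arms. Neither Cdc7 probe set was called in any of the 21 comparisons. The second, 1426021_a_at, lay between 34.8 and 99.9 and had another order, with arm means of 59.3 in AcP+AcPb, 61.3 in AcP, 71.9 in AcPb and 50.99 in CD25 neurons.

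The first question was how low the unstimulated AcP+AcPb level was. Differences are on the scale of log2(intensity + 16), with the standard error after ±, from limma fitted to 30468 probe sets, and a probe set was called at a Benjamini-Hochberg adjusted p under 0.05. Against the mean of the 3 other control groups, 13 of 22 member probe sets were lower in AcP+AcPb control, where 3.04% of all probe sets tested were called lower. The share of all probe sets given beside each count below is for the same direction, or for either direction where no member was called. The median difference of the members was -0.48, against -0.01 over all probe sets tested. Mcm6 on its brightest probe set was lower at -1.43 ± 0.22 (adjusted p = 0.00117), Mcm5 at -1.12 ± 0.11 (adjusted p = 2.57e-05), Mcm4 at -0.72 ± 0.09 (adjusted p = 0.000244) and Dbf4 at -0.70 ± 0.08 (adjusted p = 0.000149). Mcm2 followed with -0.49 ± 0.08 (adjusted p = 0.00119), Mcm7 with -0.46 ± 0.05 (adjusted p = 0.000109) and Cdt1 with -0.36 ± 0.08 (adjusted p = 0.0206). Mcm3 at -0.37 ± 0.11 (adjusted p = 0.0717) and Cdc7 at -0.17 ± 0.07 (adjusted p = 0.145) did not pass. Of the 22, 7 had all 3 AcP+AcPb control arrays below all 9 other control arrays, where 2.32% of all probe sets did.

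Arm by arm, the count was highest against CD25 neurons. Against CD25 control, 17 of 22 members were lower in AcP+AcPb control, beside 8.92% of all probe sets. Mcm6 differed by -1.79 ± 0.27 (adjusted p = 0.00025), Mcm5 by -1.54 ± 0.14 (adjusted p = 1.46e-06) and Dbf4 by -1.10 ± 0.10 (adjusted p = 2.66e-06). Against AcPb control 13 of 22 were lower, beside 1.55% of all, with Mcm6 at -1.54 ± 0.27 (adjusted p = 0.00529) and Mcm5 at -1.07 ± 0.14 (adjusted p = 0.000475). With only those 6 arrays in the fit, the count against AcPb control was 0.

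Against AcP control, the nearest arm and the one that shares AcP, a single member of 22 was called lower in AcP+AcPb control, beside 0.108% of all probe sets. It was Mcm5 on 1436808_x_at, at -0.75 ± 0.14 (adjusted p = 0.0297). This call was lost without AcP control 1 (adjusted p = 0.101), without AcP+AcPb control 2 (0.13) and without AcP+AcPb control 3 (0.0921), and the members' count was 2 without AcP control 2 or without AcP+AcPb control 1. It was also lost with array medians centred (adjusted p = 0.0566), with 64 in place of 16 (0.0511), with array weights (0.307) and with only those 6 arrays in the fit (0.813). In all, 21 of 22 members had a negative difference, while 46.1% of all probe sets had a positive one. The median was -0.24 against -0.02 over all probe sets, and 9 of 22 had an unadjusted p under 0.05, as did 10.7% of all probe sets. In 7 of 22 all 3 AcP+AcPb control arrays were below all 3 AcP control arrays, beside 6.91% of all probe sets. Mcm6 at -0.97 ± 0.27 (adjusted p = 0.168), Mcm4 at -0.37 ± 0.11 (adjusted p = 0.194), Mcm2 at -0.31 ± 0.09 (adjusted p = 0.193) and Dbf4 at -0.29 ± 0.10 (adjusted p = 0.296) did not pass, while Cdt1 at -0.01 ± 0.10 and Mcm3 at -0.02 ± 0.14 were near 0.

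The second question was whether IL-1b raised these genes in AcP+AcPb neurons. Of 22 member probe sets 1 was called higher, beside 0.217% of all probe sets. It was again Mcm5 on 1436808_x_at, with means of 127 ± 6.80 with IL-1b and 74.3 ± 11.4 in control (SD, n = 3 each), a difference of 0.67 ± 0.14 (adjusted p = 0.0441). The call was kept without AcP+AcPb control 1, with 3 members then called, and was lost without AcP+AcPb control 2 (adjusted p = 0.222), without control 3 (0.112), and without AcP+AcPb IL-1b array 1 (0.126), 2 (0.126) or 3 (0.132). It was lost too with array medians centred (adjusted p = 0.0935), with 64 in place of 16 (0.0751), with no filter on dim probe sets (0.0645), with only those 6 arrays in the fit (0.281) and with the array code as a fixed term, where the difference was 0.79 (0.255).

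Other members had positive differences that did not pass the test. Dbf4 differed by 0.49 ± 0.10 (adjusted p = 0.0588), Mcm4 on 1436708_x_at by 0.51 ± 0.11 (adjusted p = 0.0684) and Mcm6 on 1416251_at by 0.86 ± 0.27 (adjusted p = 0.264). The Mcm6 difference was 1.30 without AcP+AcPb control 1 (adjusted p = 0.00389) and 0.52 without AcP+AcPb control 2 (adjusted p = 0.776), and Dbf4 without control 1 was at 0.57 (adjusted p = 0.0291). Mcm7 on 1416030_a_at was at 0.30 ± 0.08 (adjusted p = 0.144), and the second Mcm5 probe set, 1415945_at, at 0.59 ± 0.19 (adjusted p = 0.302). Mcm3, Cdc7 and Cdt1 on their brightest probe sets lay at -0.07 ± 0.14, 0.04 ± 0.08 and -0.02 ± 0.10, with 95% intervals of -0.36 to 0.23, -0.13 to 0.21 and -0.23 to 0.19. Over the 22 members 18 differences were positive, beside 52.6% of all probe sets, with a median of 0.22 against 0.01 over all. An unadjusted p under 0.05 was found for 10 of 22, as for 9.78% of all. In 10 of 22 all 3 IL-1b arrays were above all 3 control arrays, beside 9.72% of all probe sets.

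In the other arms no member was called in response to IL-1b. In AcP neurons limma called 0 of 22, beside 0.404% of all probe sets, and 11 differences were positive, beside 49.5% of all, with a median of 0.00. None of the 22 had an unadjusted p under 0.05, where 8.24% of all did, and 0 had IL-1b arrays all above control arrays, beside 4.43% of all. In AcPb neurons it called 0 of 22, beside 0.00985% of all, 19 differences were positive, beside 49.4% of all, with a median of 0.14, 4 had an unadjusted p under 0.05, beside 10.1% of all, and 7 of 22 had IL-1b arrays all above control arrays, beside 10.3% of all. The AcPb difference was 0.33 ± 0.11 for Mcm4 and 0.27 ± 0.14 for Mcm5 (adjusted p = 0.347 and 0.52). In CD25 neurons limma called 0 of 22, beside 0% of all, and 11 differences were positive, beside 47.7% of all. None of the 22 had an unadjusted p under 0.05, where 5.62% of all probe sets did, and 0 had IL-1b arrays all above control arrays, beside 7.06% of all.

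Whether the AcP+AcPb response differed from that of another arm was tested directly, and no member passed. The difference between responses was called for 0 of 22 members against AcP, beside 0.00328% of all probe sets, for 0 against AcPb, beside 0.0919%, for 0 against CD25, beside 0.141%, and for 0 against the mean of the 3 other arms, beside 0.0459%. Mcm5 on 1436808_x_at had a response difference of 0.86 ± 0.19 against AcP (adjusted p = 0.485), with a 95% interval of 0.45 to 1.26, and of 0.79 ± 0.19 against CD25 (adjusted p = 0.195). For Dbf4 it was 0.31 ± 0.15 against AcP (adjusted p = 0.976) and 0.61 ± 0.15 against CD25 (adjusted p = 0.19). At an unadjusted p under 0.05 the counts were 6 of 22 against AcP, beside 5.12% of all probe sets, 3 against AcPb, beside 5.02%, 7 against CD25, beside 10.1%, and 6 against the mean of the other arms, beside 5.48%. Without AcP+AcPb control 1, 1 member was called against CD25 and 1 against the mean of the other arms.

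**Figure D3:**
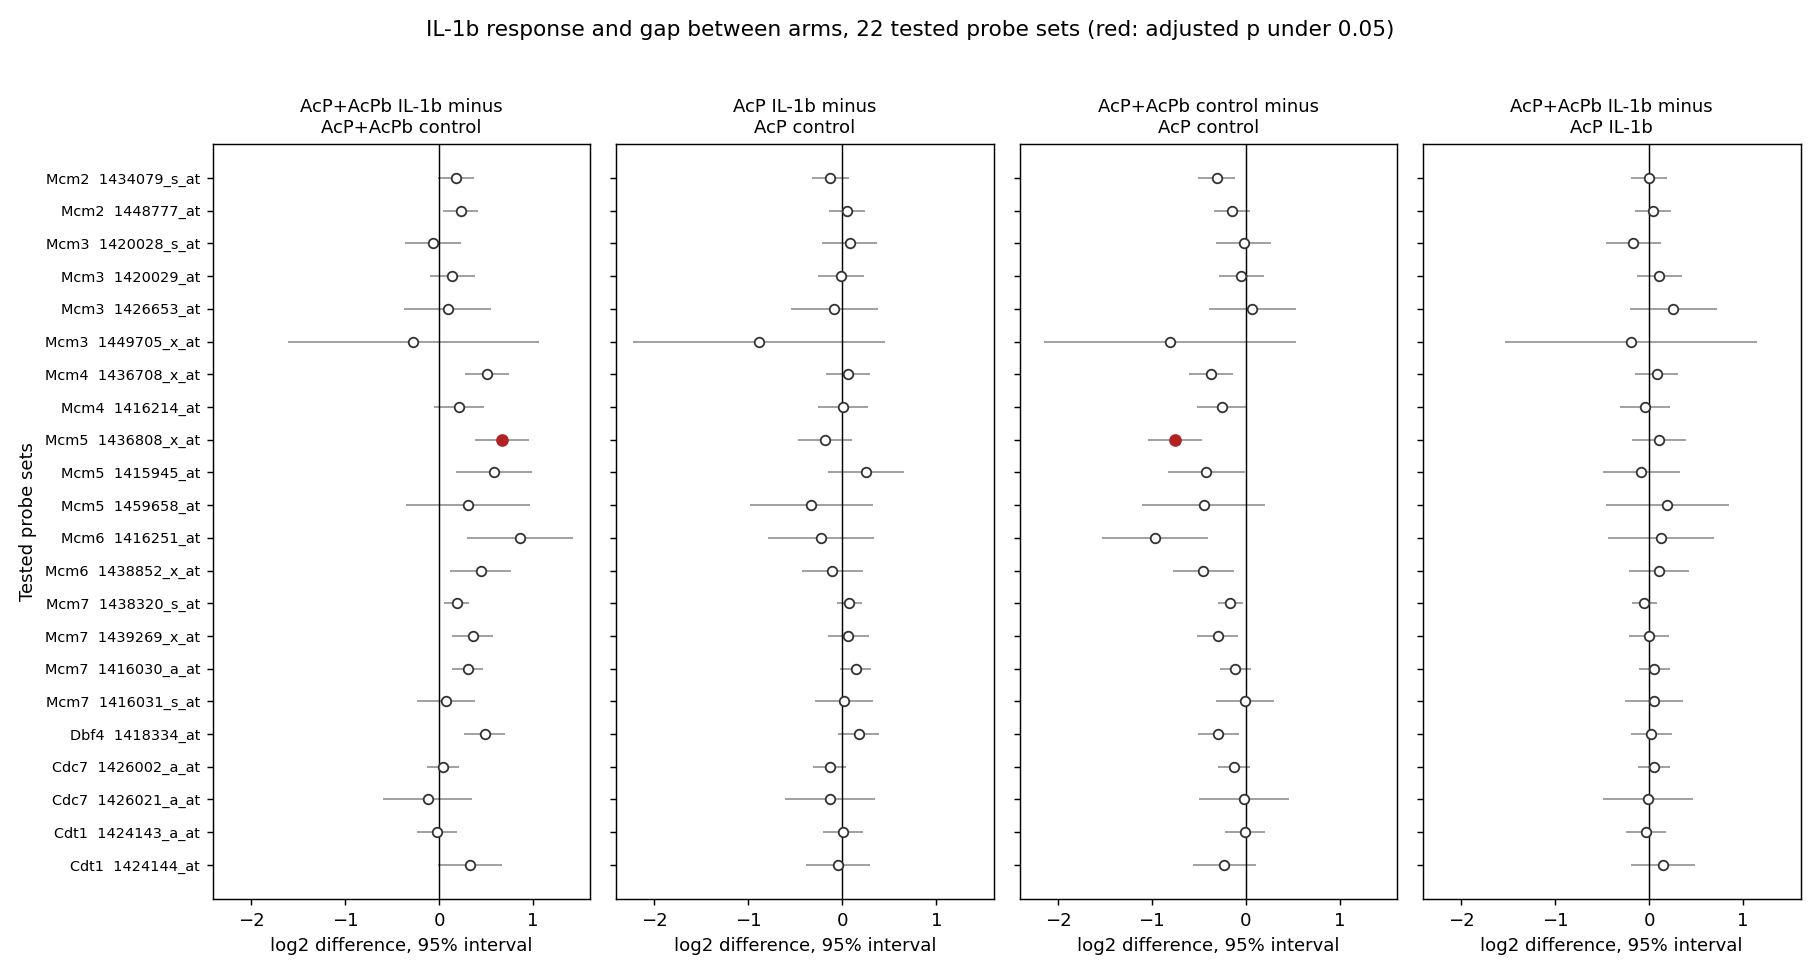
Differences on the log2 scale (horizontal axes) of the 22 tested member probe sets (rows) with 95% intervals, in 4 comparisons, with red points at an adjusted p under 0.05. Mcm5 1436808_x_at is red for AcP+AcPb IL-1b minus AcP+AcPb control, at 0.67, and for AcP+AcPb control minus AcP control, at -0.75, and the points of AcP+AcPb IL-1b minus AcP IL-1b lie around 0.

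The AcP+AcPb control arrays enter both the response and the comparison of unstimulated arms, with opposite signs, so that low values on them give both a lower baseline and a positive response. A comparison that leaves them out is that of the stimulated arms. With IL-1b, 0 of 22 members differed between AcP+AcPb and AcP neurons, beside 0.0328% of all probe sets, with a median of 0.04 and none at an unadjusted p under 0.05, where 10.2% of all were. Mcm5 on 1436808_x_at differed by 0.10 ± 0.14 (adjusted p = 0.832), with a 95% interval of -0.18 to 0.39. For Dbf4 the interval was -0.19 to 0.24, for Mcm4 -0.15 to 0.31, for Mcm7 -0.18 to 0.08 and for Mcm6 -0.44 to 0.69. Set against AcP neurons without IL-1b, a comparison added after seeing the data, stimulated AcP+AcPb neurons also had 0 of 22 members called, beside 0.834% of all, with a median of 0.01 and 1 at an unadjusted p under 0.05, beside 14.5% of all. There Mcm5 differed by -0.08 ± 0.14, with an interval of -0.37 to 0.20, and Dbf4 by 0.19 ± 0.10, with an interval of -0.02 to 0.41.

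The gap to the AcPb and CD25 arms was also present with IL-1b. Stimulated AcP+AcPb neurons had 7 of 22 members lower than the mean of the other stimulated arms, beside 1.15% of all probe sets. Mcm3 was lower at -0.60 ± 0.11 (adjusted p = 0.0104), Mcm5 at -0.44 ± 0.11 (adjusted p = 0.0452), Cdt1 at -0.42 ± 0.08 (adjusted p = 0.0127) and Mcm7 at -0.35 ± 0.05 (adjusted p = 0.00175). Also called lower were Mcm2 on 1434079_s_at at -0.31 and on 1448777_at at -0.33, and Mcm6 on 1438852_x_at at -0.49. This Mcm6 call was kept in 8 of 24 alternatives. Dbf4 at -0.28 ± 0.08 (adjusted p = 0.0872), Mcm4 at -0.29 ± 0.09 (adjusted p = 0.0946) and Mcm6 on 1416251_at at -0.48 ± 0.22 (adjusted p = 0.252) did not pass. The count of 7 was 4 without CD25 IL-1b array 1 or 2, AcP IL-1b array 1 or 3, or AcPb IL-1b array 1 or 3. It was 2 without AcP+AcPb IL-1b array 1 or 2 and 1 without AcP+AcPb IL-1b array 3. It was 11 with array weights and 4 with the array code as a random block. Against stimulated AcPb neurons 10 of 22 were lower, beside 1.27% of all, with 6 without AcPb IL-1b array 1 and 4 without AcP+AcPb IL-1b array 2. Against stimulated CD25 neurons 14 of 22 were lower, or 4 with only those 6 arrays in the fit, beside 5.62% of all, with Mcm3 at -0.93 ± 0.14 (adjusted p = 0.000392) and Mcm7 at -0.54 ± 0.06 (adjusted p = 4.18e-05).

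Neighbours in the order of levels were compared after seeing the data. Unstimulated AcP neurons had 3 of 22 members lower than AcPb neurons, beside 0.115% of all probe sets, 1 of Mcm2 and 2 of Mcm7, and this count was 1 without AcP control 1 and 0 without any one of the AcPb controls 1, 2 or 3. With IL-1b the same arms differed in 13 of 22, lower in AcP neurons, beside 2.35% of all, with Mcm5 at -0.78 ± 0.14 (adjusted p = 0.00288). That count was 7 without AcP IL-1b array 2 and 8 without AcP IL-1b array 3 or AcPb IL-1b array 1 or 3. Unstimulated AcPb neurons had 2 of 22 lower than CD25 neurons, beside 3.42% of all, namely Mcm4 at -0.53 ± 0.11 (adjusted p = 0.0084) and Dbf4 at -0.39 ± 0.10 (adjusted p = 0.0369), and 1 without CD25 control 1 or 3 or any one of the 3 AcPb controls. With IL-1b 0 of 22 differed between AcPb and CD25 neurons, beside 2.15% of all, with 4 at an unadjusted p under 0.05, beside 13.9% of all, and Mcm5 at -0.09 ± 0.14, with an interval of -0.37 to 0.20. These comparisons share arrays with those above.

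Within the AcP+AcPb arm, the array code could be held constant only by setting the 3 IL-1b arrays against control 3, all of code 23. The members' differences were then positive for 18 of 22, with a median of 0.18, beside 54.0% positive and a median of 0.02 over all probe sets tested. Against the controls of code 22 they were positive for 17 of 22, with a median of 0.25. Mcm5 on 1436808_x_at differed by 0.79 from the code 23 control and by 0.61 from the code 22 controls, Dbf4 by 0.65 and 0.41, and Mcm6 on 1416251_at by 1.06 and 0.76. The fit with the array code as a fixed term, which takes the spread from all arrays, gives the Mcm5 difference of 0.79 from the code 23 control an adjusted p of 0.255.

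Other genes of the cell cycle were read from lists on each gene's brightest probe set. Shares of all probe sets given beside them also cover the other tested probe sets. On brightest probe sets alone, 490 of 14217 genes were lower in unstimulated AcP+AcPb neurons than the mean of the other arms, for comparison with each list below. The mitosis list holds genes of spindle, kinetochore and cytokinesis. In unstimulated AcP+AcPb neurons 16 of its 23 tested genes were lower than the mean of the other arms, beside 3.04% of all probe sets, with a median of -0.81 against -0.01 over all, led by the proliferation marker Mki67 at -1.93 ± 0.27 (adjusted p = 0.00054), the mitotic kinase Cdk1 at -1.38 ± 0.13 (adjusted p = 2.13e-05), the ubiquitin enzyme Ube2c at -1.29 ± 0.10 (adjusted p = 2.02e-06) and the kinase Melk at -1.22 ± 0.20 (adjusted p = 0.00224). Of 25 genes of the replication fork and nucleotide supply 11 were lower, with a median of -0.28, including Rfc2 of the clamp loader at -1.06 ± 0.28 (adjusted p = 0.0376), the ribonucleotide reductase subunit Rrm2 at -0.88 ± 0.09 (adjusted p = 4.36e-05), Pola2 of the primase complex at -0.83 ± 0.20 (adjusted p = 0.0228) and the maintenance methylation factor Uhrf1 at -0.71 ± 0.15 (adjusted p = 0.0121). Of 25 genes of G1/S control 10 were lower, with a median of -0.18, including the cyclins Ccna2 at -1.21 ± 0.16 (adjusted p = 0.000412) and Ccnd1 at -0.62 ± 0.17 (adjusted p = 0.0454), the inhibitor Fbxo5 at -1.43 ± 0.33 (adjusted p = 0.019) and the repressor E2f8 at -0.60 ± 0.10 (adjusted p = 0.00178).

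The other genes of the pre-replicative complex differed in both directions. Of 24 tested, 4 were lower and 1 was higher in unstimulated AcP+AcPb neurons than the mean of the other arms, with a median of -0.11. Of 14217 genes on their brightest probe sets, 490 were lower and 225 higher. The helicase partner Gins1 was lower at -1.30 ± 0.27 (adjusted p = 0.0124), the Cdt1 inhibitor geminin, Gmnn, at -0.76 ± 0.16 (adjusted p = 0.0126) and the fork protein Tipin at -0.35 ± 0.08 (adjusted p = 0.0142), while the firing factor Ticrr was higher by 0.88 ± 0.14 (adjusted p = 0.00151). Against AcP control alone, 1 mitosis gene, Ube2c, was lower at -0.80 ± 0.12 (adjusted p = 0.0116) and 1 replication gene, Rrm2, at -0.59 ± 0.11 (adjusted p = 0.0455). The list medians were -0.41 and -0.17, and 0.108% of all probe sets were lower there. With IL-1b, 0 genes of these 4 lists differed between AcP+AcPb and AcP neurons, beside 0.0328% of all probe sets. The medians were -0.13 for mitosis, -0.03 for the replication fork, -0.02 for G1/S and 0.03 for the pre-replicative complex. At an unadjusted p under 0.05 there were 0 of 23, 3 of 25, 1 of 25 and 1 of 24, beside 10.2% of all probe sets. No gene of these 4 lists was called in the IL-1b response of AcP+AcPb neurons, beside 78 of all 30468 probe sets in either direction. The medians were 0.14, 0.10, 0.06 and 0.05 in the same order. At an unadjusted p under 0.05 there were 3, 4, 4 and 5 genes, beside 9.78% of all probe sets.

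**Figure D4:**
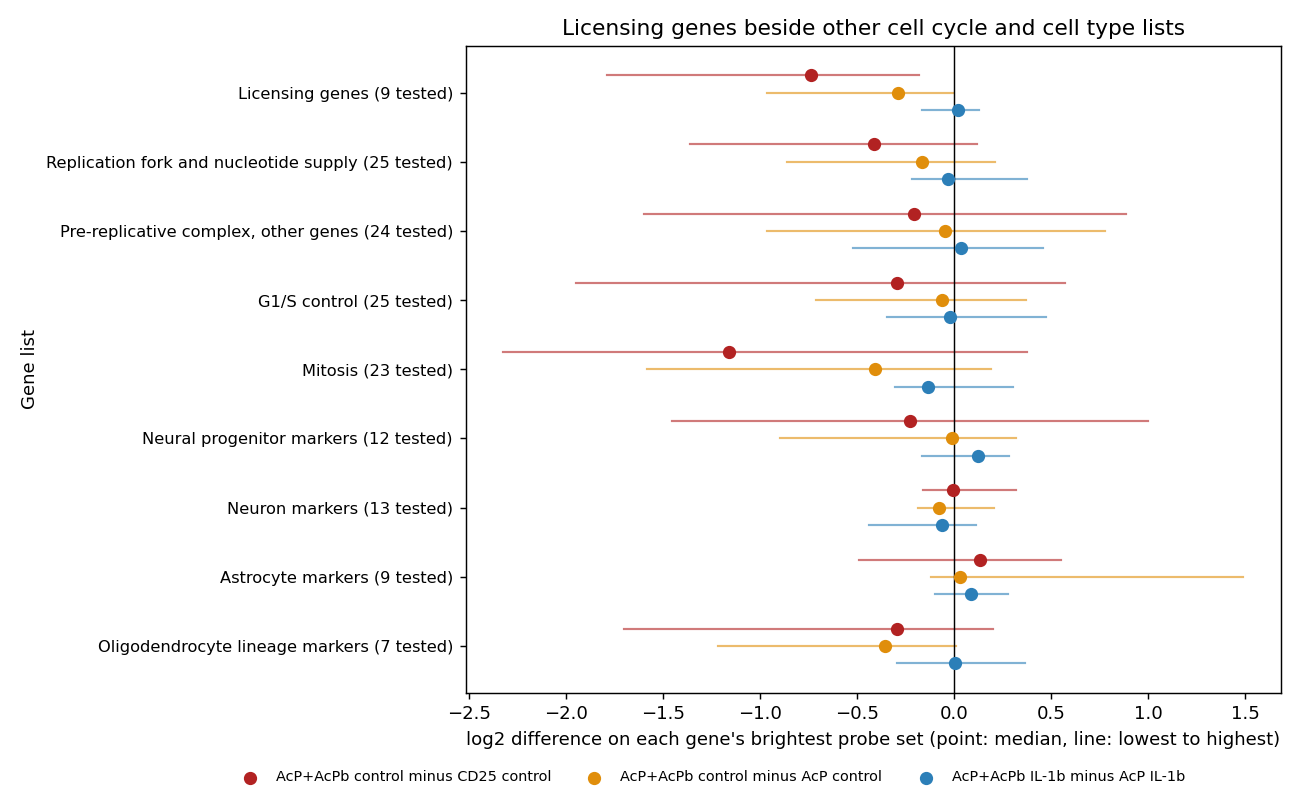
Differences on the log2 scale (horizontal axis) on the brightest probe set of each tested gene, for the licensing genes and 8 other lists, with a point at the median and a line from the lowest to the highest gene. For the licensing genes the medians are -0.74 for AcP+AcPb control minus CD25 control, -0.29 for AcP+AcPb control minus AcP control and 0.02 for AcP+AcPb IL-1b minus AcP IL-1b.

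Markers of cell types are given beside these counts. The summed intensity of the mitosis list ranged from 1831 to 2061 in AcP+AcPb with IL-1b and from 1688 to 1953 in AcP+AcPb control, from 1859 to 2162 in AcP with IL-1b and from 2332 to 2445 in AcP control, from 2973 to 3613 in AcPb with IL-1b and from 2796 to 3378 in AcPb control, and from 4105 to 4957 in CD25 with IL-1b and from 3860.4 to 5097 in CD25 control. Of 12 neural progenitor markers, 4 were lower and 1 was higher in AcP+AcPb control than in CD25 control. There 8.92% of all probe sets were lower and 1629 of all 30468 higher. Vim differed by -0.83 ± 0.12 (adjusted p = 0.000182), Nes by -0.74 ± 0.18 (adjusted p = 0.0102), Sox2 by -0.46 ± 0.08 (adjusted p = 0.00106) and Hes5 by 1.00 ± 0.16 (adjusted p = 0.000391). Against the mean of the other controls limma called 0 of 12, beside 1340 of all 30468 probe sets in either direction. In that comparison 4 of 12 had an unadjusted p under 0.05, as did 20.8% of all probe sets. Sums over the progenitor list ranged from 14925 to 16267 in AcP+AcPb control, from 14375 to 15814 in AcP control, from 15805 to 17081 in AcPb control and from 18631 to 19872 in CD25 control. Of 13 neuron markers 1 differed from CD25 control, beside 4347 of all 30468 probe sets. It was Tbr1, higher by 0.32 ± 0.10 (adjusted p = 0.0381), and the median over the list was 0.00. Of 9 astrocyte markers 1, Gfap, was higher in AcP+AcPb control than in AcP control, beside 22 of all 30468 probe sets. It differed by 1.49 ± 0.29 (adjusted p = 0.0455), and the list median was 0.03. Against CD25 control 2 astrocyte markers were higher and 1 was lower, beside 1629 higher and 2718 lower of all 30468 probe sets. The list median was 0.13, and Gfap, not called there, averaged 1360.2 in AcP+AcPb control and 1935.5 in CD25 control. Mbp, of the oligodendrocyte lineage, was lower than in the other controls at -1.43 ± 0.26 (adjusted p = 0.00476). Group means of the other lineage markers follow for AcP+AcPb, AcP, AcPb and CD25 control, in that order. Pdgfra had 54.5, 147, 240 and 149, Olig2 233, 352, 319 and 297, and Cnp 963, 1138, 1235 and 1201. Olig1 had 3230, 4131, 3812 and 2802, Cspg4 79.1, 80.8, 81.4 and 88.8, and Sox10 130.6, 131.0, 125.8 and 118.1. Mog was below 0 in each of these groups. Of 9 tested endothelial, mural and fibroblast markers 4 were lower than in CD25 control, beside 8.92% of all probe sets. They were led by Acta2 of smooth muscle at -1.06 ± 0.21 (adjusted p = 0.00292) and the collagen Col3a1 at -0.74 ± 0.13 (adjusted p = 0.000786). Dcn averaged 138 in AcP+AcPb control and 113 in CD25 control, and Kdr 81.1 and 79.4. Sums over this list ranged from 1103 to 1404 in AcP+AcPb control and from 1951 to 2694 in CD25 control. Microglia sums were between 367 and 1012 on every array. The part of these cell types in the members' levels was not tested.

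Across the 24 arrays the members varied together, given as a description because arrays share their arms. Pearson's r of each member with the mean standardised profile of Mcm2 to Mcm7 was 0.98 for Mcm7, 0.97 for Mcm5, 0.96 for Mcm2, 0.95 for Mcm4, 0.94 for Dbf4, 0.92 for Mcm6, 0.91 for Cdt1 and 0.89 for Mcm3, and 0.63 for Cdc7. The ring genes are part of that profile, while Dbf4, Cdt1 and Cdc7 are not. Among all other genes the most alike were Rrm2 with r = 0.973, Shcbp1 with 0.968, Cdk1 with 0.965, Smc2 with 0.965, Racgap1 with 0.963, Top2a with 0.962, Nusap1 with 0.961 and Pbk with 0.961. Rrm2 makes deoxynucleotide precursors, Cdk1 drives mitosis, Smc2 is a condensin subunit and Top2a untangles replicated DNA. The choice by likeness fixes the order of arms in these genes, and their levels are a description. Cdk1 averaged 133 over the AcP+AcPb arrays, 195 over AcP, 312 over AcPb and 494 over CD25, and Rrm2 averaged 511, 667, 894 and 1091 over the same arms in that order.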

How the data were processed

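The 24 samples were hybridised to 1-colour Affymetrix arrays, and their 8 groups of 3 were taken from the labels. The deposited values are probe set intensity values on a linear scale, made by the authors. Their summarisation and scaling are not given in the sources used here. Per the labels' protocols, RNA was labelled with biotin. The values span dim genes below 0, no detection calls were used, and the small number of arrays limits the precision.

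The 40 control probe sets were left out of 45077. Negative values were set to 0, 16 was added and log2 taken, because the values are linear, so that changes of dim probe sets are understated. Probe sets above an array's own 40th percentile on 3 or more arrays were tested. These were 30468, 22 of them members. The test was limma 3.58.1 in R 4.3.3 (lmFit and eBayes, 16 residual degrees of freedom, all 24 arrays, 8 group means). P-values are two-sided and Benjamini-Hochberg adjusted over all tested probe sets within each of 21 comparisons. Of these, 5 between neighbours in the order of levels were added after seeing the data. The members and gene lists were chosen with earlier results of these data known. Tables were handled with pandas 2.3.3 in Python 3.11.15, and figures drawn with matplotlib 3.10.9.

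Values per array are given for the probe set with the highest mean (the brightest) of each member and for every member probe set called in any comparison, and the others by range. Of other lists, up to 4 called genes per comparison are named, on the brightest probe set. Alternatives were another normalization, another added constant, other filters, array weights, an intensity trend, the brightest probe set alone, only the arrays compared, blocks for replicate number and array code, and leaving out each array. No array pair held identical values. Replicate numbers did not pair the arrays: the correlation of deviations over 84 pairs with the same number ranged from -0.186 to 0.272.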

Additional observations from a re-analysis of the deposited data

How the results depend on the processing

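Of 1863 values of called member probe sets recomputed under the alternatives, 1633 kept their call, 230 lost it and 0 changed direction. Counts out of 22 that moved by more than 1.5 times were as follows, and the cause was not tested except that the brightest probe sets alone leave 9 to count and a fit to only the arrays compared holds fewer arrays. The AcP+AcPb response, with 1 member called, gave 0 with array medians centred, with 64 added, with no filter, with only the arrays compared and with the array code as a fixed block, 2 with 4 added, with array weights and with an intensity trend, and 3 with a filter at the 60th percentile and on the brightest probe sets. Without 1 array it gave 0 to 3. Unstimulated AcP+AcPb against AcP (1) gave 0 with medians centred, 64 added, array weights or only the arrays compared, and 0 to 2 without 1 array. Against AcPb (13) it gave 7 on the brightest probe sets and 0 with only the arrays compared, against CD25 (17) 8 and against the other arms (13) 7 on the brightest. Stimulated AcP+AcPb against AcPb (10) gave 6 on the brightest and 4 to 7 without 1 array. Against CD25 (14) it gave 8 on the brightest and 4 with only the arrays compared, and against the other arms (7) 11 with array weights, 4 with the array code as a random block and 1 to 7 without 1 array. The response differences against CD25 and against the other arms (0 each) gave 0 to 1 without 1 array. Unstimulated AcP against AcPb (3) gave 0 with medians centred, array weights or only the arrays compared, 1 on the brightest and 0 to 3 without 1 array. Stimulated AcP against AcPb (13) gave 8 with medians centred or only the arrays compared, 7 on the brightest and 7 to 11 without 1 array. Unstimulated AcPb against CD25 (2) gave 1 with quantile normalization or medians centred, 4 with 64 added or a 60th percentile filter, 8 with array weights and 1 to 2 without 1 array. The replicate numbers did not pair the arrays, and 9 of 24 correlated best with their own number. With the replicate block, that last count was 5, and no other count moved by over 1.5 times. The Mcm5 response on 1436808_x_at lay between 0.47 and 0.79 and its difference from AcP control between -0.85 and -0.53 over all alternatives. The Cdc6 probe set did not pass the filter on dim values, so no test of it is reported.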
